A study of Mus musculus with 4 samples.

Results

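The genes described here are 10 transcription factors that pattern the cerebellum or mark its cell lineages: Otx1, Otx2, Lhx1, Lhx5, En1, En2, Barhl1, Pax6, Lmx1a and Eomes. They were taken by symbol from the 55573 genes of the deposited table, and all 10 were found. RNA had been sequenced from SmoWT cells, a mouse medulloblastoma culture of the Sonic Hedgehog (SHH) subtype grown as neurospheres. The labels give the strain as C57BL/6 and the genotype as Ptch1+/-, Trp53-/-, shared by every library, and the source as spontaneous tumours of such mice. The inhibitor GDC0449 (vismodegib), which blocks Smoothened, the membrane protein that Ptch1 restrains, was applied at 0.1 µM for 24 h before 2 of the 4 libraries were made. The other 2 libraries are solvent controls (DMSO, 24 h). The labels do not say how many animals or cell lines the cultures came from, and do not call the replicates separate cultures. The p-values therefore cover the variation among these 4 libraries alone, and that variation may be technical.

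These factors divide up the early cerebellum. Otx2 marks the forebrain and midbrain side of the midbrain-hindbrain boundary, and En1 and En2, the Engrailed genes, are expressed across it in the cerebellar primordium. Within the cerebellum Otx2, Pax6 and Barhl1 belong to the glutamatergic lineage of the rhombic lip, which forms granule neurons. Lmx1a and Eomes mark the roof plate or rhombic lip and the unipolar brush cells, and Lhx1 and Lhx5 mark GABAergic Purkinje precursors and interneurons. Eomes encodes a T-box protein and the others homeodomain proteins, so the set is a lineage set and not a single gene family. Medulloblastoma of the SHH subtype resembles granule neuron progenitors.

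The libraries held 16329721 to 20790030 reads in genes. Between replicates the chi-square per gene was 4.11 (DMSO) and 3.41 (GDC0449), above counting noise. Unassigned reads outside genes were more frequent with the inhibitor (14.3% and 14.4%) than without it (12.3% and 13.2%), and their part in the results was not tested. Gli1, the transcription factor that reports Hedgehog activity, fell 7.61-fold with GDC0449, Hhip 5.90-fold and Ptch1 1.95-fold (edgeR adjusted p = 1.67e-36, 1.10e-28 and 3.44e-08).

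Sequences are shown for Lhx1 and Otx2, the members that rose, because their start regions also bear on a neighbouring transcript (Lhx1) and on homeodomain motifs (Otx2). Both are on the minus strand and are written 5′ to 3′ along the gene, from RefSeq promoters of build GRCm38.p6. Lhx1 and the long noncoding gene Lhx1os start back to back on opposite strands, with 124 bases between their annotated starts, and this stretch, chr11:84525536-84525659, is given whole with a CCAAT box (read here on the opposite strand) in capitals. For Otx2 the 250 bases before the most upstream of its 4 RefSeq starts, chr14:48667645-48667894, are given. TAATTA, the core bound by many homeodomains, is in capitals. The Otx2 stretch holds no annotated exon but lies inside the GENCODE gene, whose 5′ end is at 48673819. It is thus not sequence before the whole annotated gene.
Lhx1: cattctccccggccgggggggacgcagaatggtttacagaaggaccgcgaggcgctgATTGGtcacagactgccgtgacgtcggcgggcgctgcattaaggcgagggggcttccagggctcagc
Otx2: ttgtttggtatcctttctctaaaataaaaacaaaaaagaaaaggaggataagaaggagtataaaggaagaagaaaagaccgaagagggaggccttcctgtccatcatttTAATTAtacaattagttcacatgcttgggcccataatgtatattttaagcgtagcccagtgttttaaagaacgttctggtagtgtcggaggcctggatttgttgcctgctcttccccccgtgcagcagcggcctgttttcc

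The members fell into those that were expressed and those that were nearly or wholly silent. Otx1, Otx2, Lhx1, En2 and Pax6 passed the expression filter of edgeR and were tested. Barhl1, Eomes and Lmx1a were below it, and Lhx5 and En1 had 0 reads in each of the 4 libraries. Of the 10 members 2, Lhx1 and Otx2, rose with GDC0449, and 0 fell. A gene was called where its adjusted p was below 0.05 and its fold change above 1.5. Over all 15472 genes tested, 8.68% were called higher and 3.85% lower. With DESeq2 and with limma-voom 0 members were called lower as well, and 1 of the tested members, Pax6, was lower with an unadjusted edgeR p under 0.05. The 5 tested members all had groups that did not overlap, as did 65.8% of all tested genes.

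**Figure D1:**
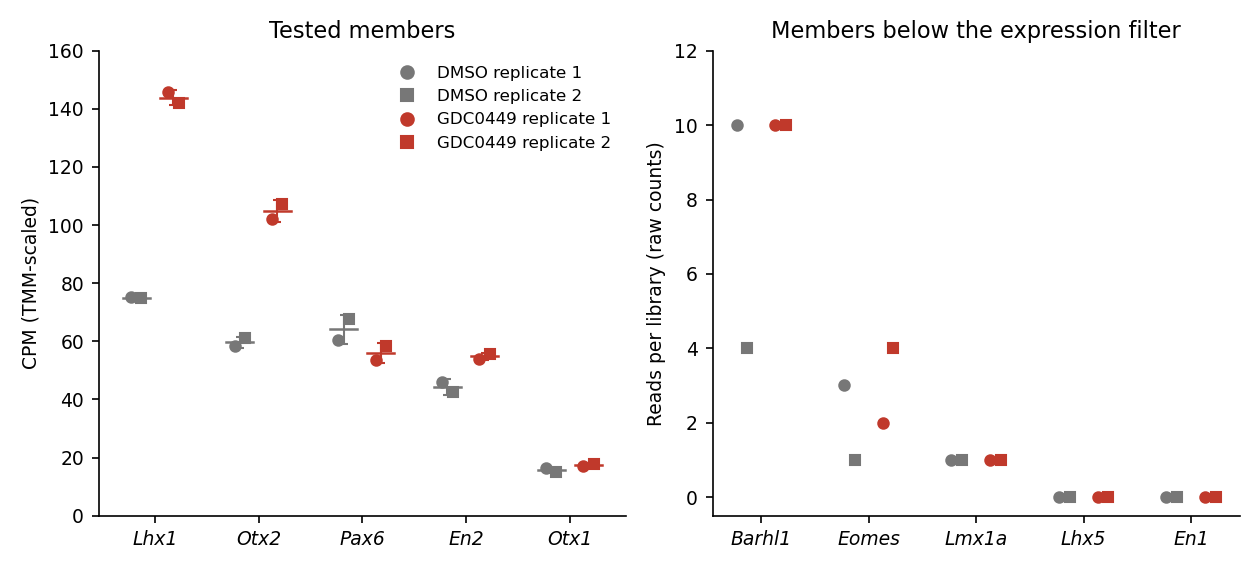
The left plot gives CPM (linear axis) of the 5 tested members in each library, with short lines for group means and bars for the SD (n = 2); the right plot gives raw reads per library of the other 5. Lhx1 and Otx2 are higher in both GDC0449 libraries, Pax6, En2 and Otx1 differ by less, and none of the members in the right plot passes 10 reads.

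Lhx1 (ENSMUSG00000018698, chromosome 11, 84518284 to 84525535), a LIM-homeodomain factor of Purkinje precursors and other neurons, had the largest fold change of the tested members. It was at 75.3 and 74.8 CPM (reads per library scaled to a common total with TMM) in DMSO replicates 1 and 2, and at 146 and 142 CPM in the GDC0449 replicates. Both treated libraries were thus nearly double either control. Lhx1 rose 1.92-fold, from 75.1 ± 0.358 to 144 ± 2.57 CPM (SD, n = 2), a log2 fold change of 0.94 (standard error 0.07, edgeR adjusted p = 4.12e-17). On the deposited FPKM values the ratio of the group means was 1.98. The measurement is of bulk RNA, in which more cells of a type and more RNA per cell cannot be told apart.

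Lhx1os, the noncoding gene whose start faces the Lhx1 start, had 173 and 151 reads in DMSO and 446 and 364 reads in GDC0449. Its level was 8.81 and 9.38 CPM in the controls against 21.2 and 17.2 CPM with the inhibitor, with no overlap. Lhx1os rose 2.12-fold (log2 fold change 1.08, standard error 0.13, edgeR adjusted p = 8.29e-10). Leaving out DMSO replicate 1 or 2 put its adjusted p at 0.0502 and 0.0512, with log2 fold changes of 1.03 and 1.12. Such fits assume that the lone control varies like the treated pair, and they called fewer genes over the whole table as well (1008 and 851 against 1939). For every 100 Lhx1 reads there were 11.7 and 12.5 Lhx1os reads in DMSO and 14.5 and 12.1 in GDC0449, so the ratio of the divergent pair overlapped between the groups. The annotated exons of Lhx1 and Lhx1os share no base. The strand setting of the counting is not given in the sources used here.

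Otx2 (ENSMUSG00000021848, chromosome 14, 48657677 to 48673819), a bicoid-type homeodomain factor, was at 58.3 and 61.0 CPM in DMSO and at 102 and 107 CPM in GDC0449. Otx2 rose 1.76-fold, from 59.7 ± 1.95 to 105 ± 3.76 CPM (log2 fold change 0.81, standard error 0.07, edgeR adjusted p = 5.98e-14). Its neighbour on the opposite strand, Otx2os1, had 31 and 29 reads in DMSO and 31 and 41 in GDC0449, with a log2 fold change of 0.02 (standard error 0.31, adjusted p = 0.964) that turned to -0.08 without DMSO replicate 1 and to -0.19 without GDC0449 replicate 2. The exons of Otx2os1 overlap 3.65% of the exonic bases of Otx2, and those of the gene model Gm49154, on the same strand, overlap 3.98%; Gm49154 had 5 to 14 reads per library. Reads in these shared bases are uncertain.

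Otx1 (ENSMUSG00000005917, chromosome 11, 21994764 to 22002897), the close relative of Otx2, did not follow it. Otx1 was at 16.2 and 15.0 CPM in DMSO and 17.1 and 17.7 CPM in GDC0449. Its log2 fold change was 0.15 (standard error 0.11, edgeR adjusted p = 0.328). Within each library the log2 ratio of Otx1 to Otx2 reads was -1.84 and -2.02 in DMSO and -2.58 and -2.60 in GDC0449. The mean ratio was lower by 0.66 with the inhibitor, and the groups did not overlap. An exact two-sided permutation test over the libraries gave p = 0.333, the smallest that 2 against 2 can give. It was the only family pair that could be tested in this way, because the other pairs each had a silent partner.

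En2 (ENSMUSG00000039095, chromosome 5, 28165694 to 28172166), the Engrailed gene of later cerebellar development, was at 46.2 and 42.4 CPM in DMSO and 53.9 and 55.7 CPM in GDC0449. Both treated libraries were above both controls, by a mean of 23.5%. The log2 fold change of 0.30 (standard error 0.08) had an edgeR adjusted p of 0.00185 and lay under the 1.5-fold threshold. Its adjusted p was 0.0549, 0.111 and 0.0502 without DMSO replicate 1, DMSO replicate 2 and GDC0449 replicate 2. The gene model Gm43610 overlaps En2 on the opposite strand without sharing an exonic base, and had 14 to 29 reads per library. En1 (chromosome 1, 120602418 to 120607992), its paralog, had 0 reads throughout. A floor of 3 reads over each group allows up to 0.0823 CPM in DMSO and 0.0723 CPM in GDC0449, counting error only. Against that floor En2 had at least 393-fold more reads per exonic base than En1 in DMSO and at least 571-fold more in GDC0449.

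Pax6 (ENSMUSG00000027168, chromosome 2, 105668900 to 105697364), a paired-type homeodomain factor of granule cells and their progenitors, was the only tested member with a negative log2 fold change. Its level was 60.6 and 67.7 CPM in DMSO and 53.6 and 58.4 CPM in GDC0449, a log2 fold change of -0.19 (standard error 0.08, edgeR adjusted p = 0.0450) under the fold threshold. Leaving out DMSO replicate 1, DMSO replicate 2, GDC0449 replicate 1 or GDC0449 replicate 2 gave an adjusted p of 0.114, 0.379, 0.413 and 0.0646. On log2(FPKM + 1) its log2 fold change was -0.04, with a limma adjusted p of 0.880. The antisense gene Pax6os1 had 2 to 4 reads per library and shared no exonic base with Pax6.

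**Figure D2:**
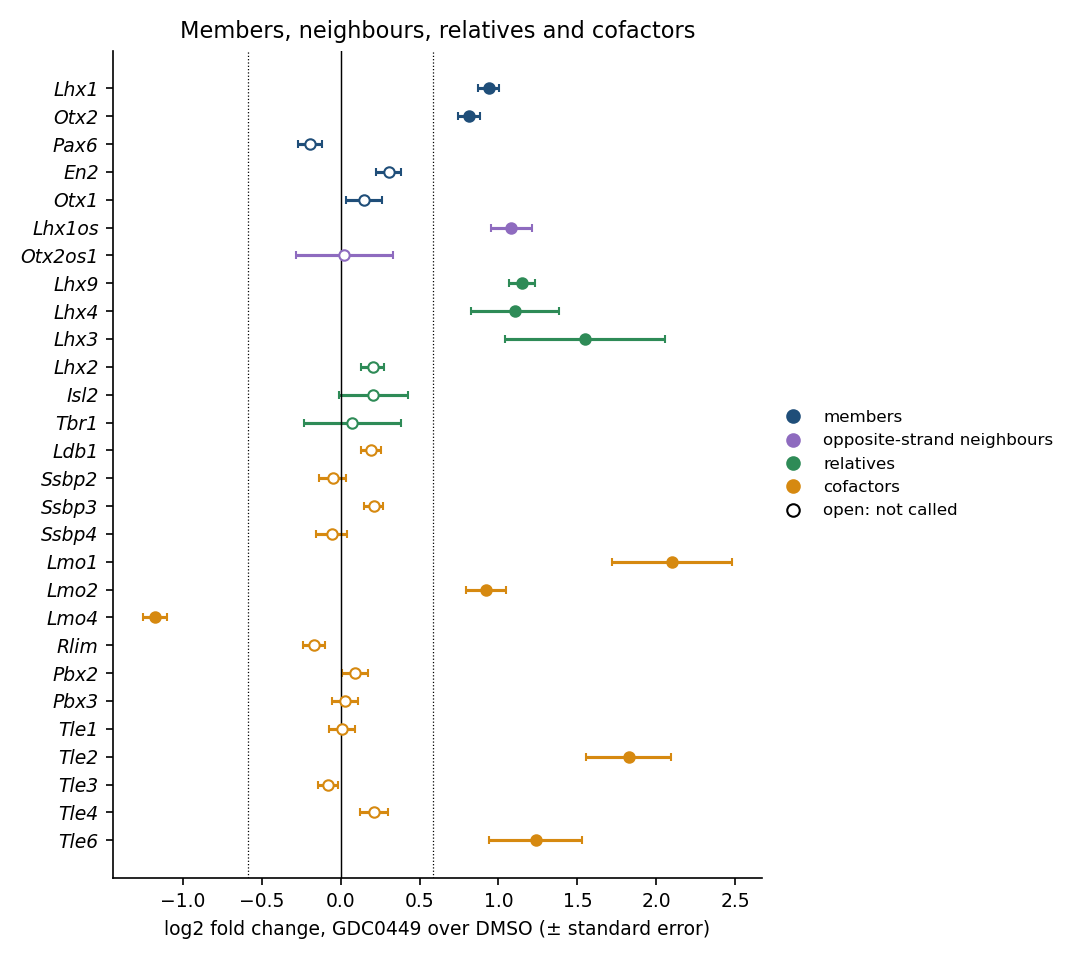
Log2 fold changes of GDC0449 over DMSO with standard errors for the tested members, 2 opposite-strand neighbours, and relatives and cofactors; filled points were called, and dotted lines mark a 1.5-fold difference. Lhx1, Lhx1os, Lhx9 and Otx2 lie to the right of the threshold with short bars, and Lmo4 is the only point beyond the threshold on the left.

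The silent members included the partner of Lhx1 and the markers of unipolar brush cells and roof plate. Lhx5 (chromosome 5, 120431699 to 120441223), which overlaps with Lhx1 in the developing cerebellum, had 0 reads and an FPKM of 0 in each library. Against the floor of 3 reads per group, Lhx1 had at least 591-fold more reads per exonic base than Lhx5 in DMSO and at least 1335-fold more in GDC0449. Eomes (chromosome 9, 118478212 to 118486132), which defines unipolar brush cells, had 3 and 1 reads in DMSO and 2 and 4 in GDC0449. The depth-scaled ratio of the group sums was 1.32, with an exact 95% interval for counting error of 0.312 to 6.35. Its antisense neighbour Gm33460 had 0 to 10 reads per library. Lmx1a (chromosome 1, 167689237 to 167848741), a roof plate and rhombic lip factor, had 1 read in each library, a ratio of 0.878 with an interval of 0.0637 to 12.1. For Eomes and Lmx1a the counts at this depth are compatible with any ratio within these intervals.

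Barhl1 (chromosome 2, 28907679 to 28916668), a homeobox gene of granule cell precursors, was scarce in cells that express other genes of that lineage. It had 10 and 4 reads in DMSO and 10 and 10 in GDC0449, or 0.379 ± 0.184 and 0.474 ± 0.000411 CPM. The ratio of the depth-scaled sums was 1.25, with an exact 95% interval for counting error of 0.603 to 2.68. Its relative Barhl2 was also near 0, with 2 to 7 reads per library. The deposited FPKM of Barhl1 was likewise low, between 0.0346 and 0.0853.

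Per length, the order of the expressed members differed in part between the deposited FPKM and counts per GENCODE exon length. In the deposited FPKM values Otx2 was highest in each library, at 28.1 and 25.7 in DMSO and 43.0 and 50.5 in GDC0449. Lhx1 came next, at 13.5 and 14.8 FPKM in DMSO and 28.2 and 27.8 FPKM in GDC0449. En2, between 7.83 and 10.5 FPKM, and Pax6, between 8.02 and 10.8 FPKM, overlapped. Otx1 was lowest, between 2.96 and 3.93 FPKM. Counts divided by the GENCODE M21 exon length of each gene instead put Lhx1 above Otx2 in each library, with an Otx2 to Lhx1 ratio of group means of 0.767 in DMSO and 0.703 in GDC0449 against 1.90 and 1.67 in FPKM. The exons of Otx2 annotated in GENCODE add up to 4221 bases, whereas CPM and FPKM together imply 2072 to 2379. For Otx1 and Pax6 the implied length was also shorter than the annotated exons. For Lhx1 it was longer, 5049 to 5584 against 4072 bases, and for En2 as well, 5298 to 5514 against 3539. FPKM and counts did not rest on the same assignment of reads for every gene. An FPKM of at least 1 in all libraries was given to 546 genes with 0 counts in all. The implied length also differed between libraries, from 5562 to 7252 bases for Pax6, so it is not a fixed gene length. The part of read assignment in the levels of the tested members was not tested. On counts per GENCODE exon length En2 lay above Pax6 in each library. Their DMSO means were 12.5 and 5.48 CPM per kb and their GDC0449 means 15.5 and 4.79. On both scales Otx1 was lowest, and Otx2 and Lhx1 held the upper places. Of the summed FPKM of the 10 members, the share of Lhx1 was 22.9 ± 1.40% in DMSO and 28.7 ± 2.29% in GDC0449 (SD, n = 2). The share of Otx2 was 43.4 ± 3.04% and 47.6 ± 1.98%, and that of Pax6 15.4 ± 2.70% and 9.41 ± 1.12%. A share also moves with the other members, and the mean FPKM of Pax6 itself was 9.57 in DMSO and 9.26 in GDC0449. The share of En2 was 13.1 ± 0.686% and 10.4 ± 0.260%, although its mean FPKM was 8.10 and 10.2.

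**Figure D3:**
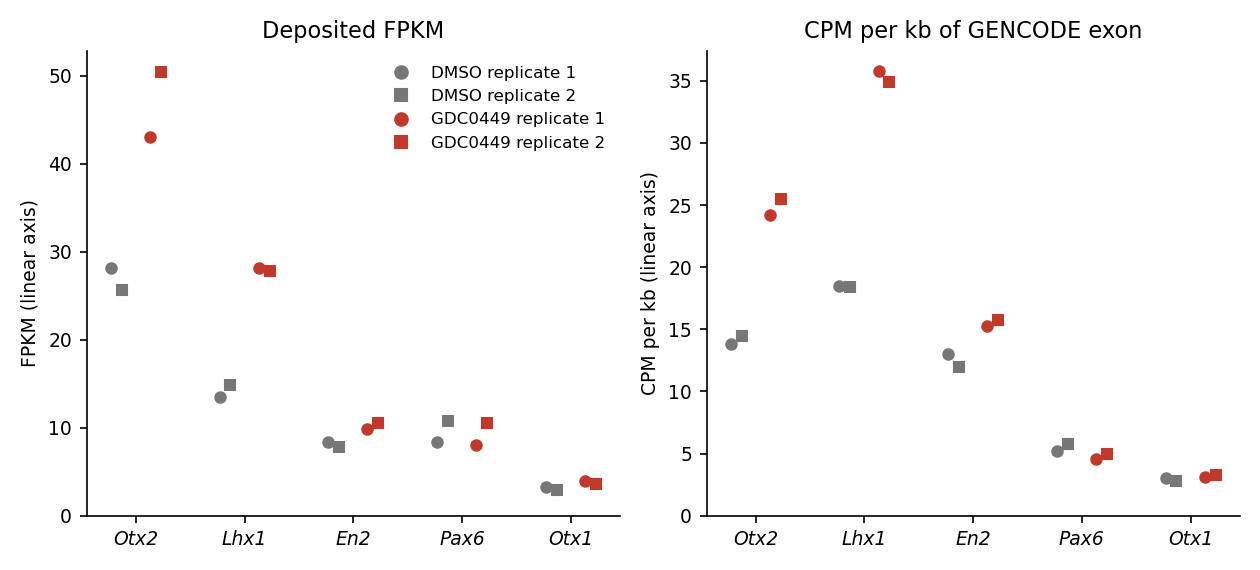
Levels per length of the 5 tested members in each library, as deposited FPKM on the left and as CPM per kb of GENCODE exon on the right (linear axes from 0). Otx2 lies above Lhx1 on the left and below it on the right, and Otx1 is lowest in both.

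Promoter windows of 300 bases, 250 before to 50 after a start, were held for 7 members in 12 windows; Otx1, Lhx5 and En2 had none. Motifs were searched on both strands, and the background is the share of all 32851 windows with at least 1 match. TAATTA was found in 5.29% of all windows and in 3 of the 12, namely 1 of Barhl1 and 2 of Otx2, with 1 match in the Otx2 window printed in part above and 3 in that of the start at 48665109, whose upstream bases lie in annotated exon. TAATCC, the bicoid-type core that OTX proteins bind, was found in 7.06% of all windows and in 2 member windows, 1 of them that same Otx2 window, and 1 of Barhl1. CCAAT was in 37.4% of all windows, and in windows of En1, Pax6, Eomes, Lhx1 and Otx2. The 9-base GLI core GACCACCCA was in 0.253% of all windows and in 0 of the 12. The Lhx1 window had 65.7% G and C, above 83.0% of all windows, and the window of the printed Otx2 start 41.7%, above 13.4%. A match is a description of these letters only.

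Of 18 listed relatives of the members 6 were tested, 3 rose and 0 fell, beside 8.68% and 3.85% of all genes tested. The 3 that rose were LIM-homeodomain genes, as were 5 of the 6 tested. With DESeq2 and limma-voom 0 relatives fell as well, and 0 had a negative log2 fold change with an unadjusted edgeR p under 0.05. Lhx9, a LIM-homeodomain factor of early rhombic lip derivatives, was at 33.7 and 40.1 CPM in DMSO and 79.0 and 84.2 CPM in GDC0449, a 2.22-fold rise (edgeR adjusted p = 1.50e-17). Its close relative Lhx2 was at 68.1 ± 4.85 and 78.6 ± 2.48 CPM, and its log2 fold change of 0.20 was under the fold threshold. Lhx4 and Lhx3 rose from low levels, Lhx4 from 1.44 ± 0.194 to 3.13 ± 0.204 CPM and Lhx3 from 0.350 ± 0.207 to 0.996 ± 0.334 CPM. Leaving out DMSO replicate 1 or 2, the adjusted p of Lhx4 was 0.0679 and 0.0882 and that of Lhx3 0.299 and 0.116, and Lhx3 was at 0.193 without GDC0449 replicate 2, so 1 relative, Lhx9, was called without either DMSO library, and 1 with DESeq2. The 7 relatives Crx, Lhx8, Lmx1b, Pax2, Pax3, Pax7 and Pax8 had 0 reads.

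LIM-homeodomain proteins act through the adaptor Ldb1, and LIM-only (Lmo) proteins compete for it; Engrailed works with Pbx proteins and the Groucho-type (Tle) corepressors. Of 18 listed cofactors 16 were tested, 4 rose and 1 fell, beside 8.68% and 3.85% of all genes tested. The median log2 fold change of the cofactors was 0.14 against 0.01 for all genes tested. Ldb1 itself was at 289 and 259 CPM in DMSO and 322 and 305 CPM in GDC0449, a log2 fold change of 0.19 under the fold threshold. Lmo4 fell 2.26-fold, from 82.0 ± 4.92 to 36.3 ± 1.41 CPM (edgeR adjusted p = 1.43e-18). In the other direction, Lmo2 rose from 9.42 ± 0.0643 to 17.8 ± 0.954 CPM and Lmo1 from 0.551 ± 0.275 to 2.30 ± 0.103 CPM. Tle2 rose from 1.30 ± 0.253 to 4.67 ± 1.04 CPM, and the fourth riser, Tle6, from 1.50 ± 0.685 to 3.44 ± 1.24 CPM. The 3′ ends of Tle2 and Tle6 face each other on opposite strands of chromosome 10, at 81590845 and 81590904. Whether reads of either gene were counted for the other was not tested. Without DMSO replicate 1 the adjusted p of Lmo1, Tle2 and Tle6 was 0.0589, 0.0543 and 0.313. Without DMSO replicate 2 Tle2 and Tle6 were at 0.0699 and 0.119, and without GDC0449 replicate 1 Tle6 was at 0.0825. Pbx2 and Pbx3 were not called.

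Lineage markers were followed beside the members. Of 15 genes of the rhombic lip and granule lineage 13 were tested, 5 rose and 0 fell, beside 8.68% and 3.85% of all genes tested. The median log2 fold change of these 13 was 0.39 against 0.01 for all genes tested. The summed level of the 15 genes was 1498 and 1467 CPM in DMSO and 2217 and 2281 CPM in GDC0449. Olig3, a transcription factor of the rhombic lip, rose 2.65-fold, from 47.0 ± 4.60 to 125 ± 0.00769 CPM, and the adhesion gene Cntn2 rose 2.97-fold. Meis1 and Neurod1 rose 1.95-fold and 1.81-fold, and the fifth riser was Atoh1. With DESeq2 and limma-voom 0 fell as well, and 1 was lower with an unadjusted edgeR p under 0.05. Of 4 genes of glutamatergic cerebellar nuclei 4 were tested, 2 rose and 0 fell, beside 8.68% and 3.85% of all genes tested. The risers were Lhx9, which is also counted among the relatives above, and Slc17a6. Lhx2 and Tbr1 were not called. The adjusted p of Slc17a6 was 0.0528 and 0.0980 without DMSO replicate 1 and 2 in turn.

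The GABAergic genes that Lhx1 accompanies in the cerebellum were largely absent. Of 11 listed genes of GABAergic progenitors and interneurons 8 had 0 reads in all libraries, among them the progenitor factor Ptf1a and Gad1, Gad2 and Slc32a1, which make and load GABA. The summed level of the list was 2.67 to 3.05 CPM in DMSO and 5.02 to 5.55 CPM in GDC0449. Of the 2 tested Kirrel2 rose from 0.622 ± 0.0871 to 2.16 ± 0.572 CPM, with an adjusted p of 0.108 and 0.0871 without DMSO replicate 1 and 2. Of 10 Purkinje cell genes Skor2, Calb1 and Car8 had 0 reads, and edgeR, DESeq2 and limma-voom each called 0 of the 4 tested. Over all genes tested edgeR called 12.5%. An unadjusted edgeR p was under 0.05 for 2 of the 4, both under the fold threshold. Itpr1 was 1.23-fold higher (edgeR adjusted p = 0.000582) and Rora 1.19-fold lower (edgeR adjusted p = 0.0919). For Pcp4, a calmodulin-binding protein gene of Purkinje cells, counts and FPKM disagreed: it had 0 reads in 3 libraries and 1 in GDC0449 replicate 2, and so was not tested on counts, but its deposited FPKM was 0.344 and 0.501 in DMSO and 4.13 and 3.08 in GDC0449. It was the 1 gene of the list that limma on log2(FPKM + 1) called, as higher. The 2 most abundant by CPM, Itpr1 and Foxp2, had DMSO means of 69.1 ± 0.313 and 31.5 ± 1.60 CPM and GDC0449 means of 85.2 ± 0.409 and 27.6 ± 1.55 CPM. The log2 fold change of Foxp2, -0.19, was 0.13 on log2(FPKM + 1).

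Beside Otx2, the list of roof plate and choroid plexus genes was low, with summed levels of 5.09 to 5.85 CPM in DMSO and 7.31 to 9.86 CPM in GDC0449. Msx2, Bmp6, Wnt3a, Folr1 and Kl had 0 reads, and the choroid plexus gene Ttr had 1 read in 1 GDC0449 library and 0 in the others. The riser among the 2 tested, Aqp1, went from 0.599 ± 0.233 to 1.90 ± 0.468 CPM, with an adjusted p of 0.0816 and 0.133 without DMSO replicate 1 and 2. Without GDC0449 replicate 1 the list had 2 calls. The summed level of 5 unipolar brush cell genes other than Eomes was 39.1 and 41.5 CPM in DMSO and 41.3 and 38.8 CPM in GDC0449, and the groups overlapped. Of 9 genes of the midbrain-hindbrain boundary 1, Fgf17, passed the filter and was not called. In this list edgeR, DESeq2 and limma-voom called 0, and 0 had an unadjusted edgeR p under 0.05. Over all genes tested edgeR called 12.5%. Fgf8 was at 0.438 ± 0.259 and 0.308 ± 0.101 CPM, and Pax2, Pax8 and Lmx1b had 0 reads.

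**Figure D4:**
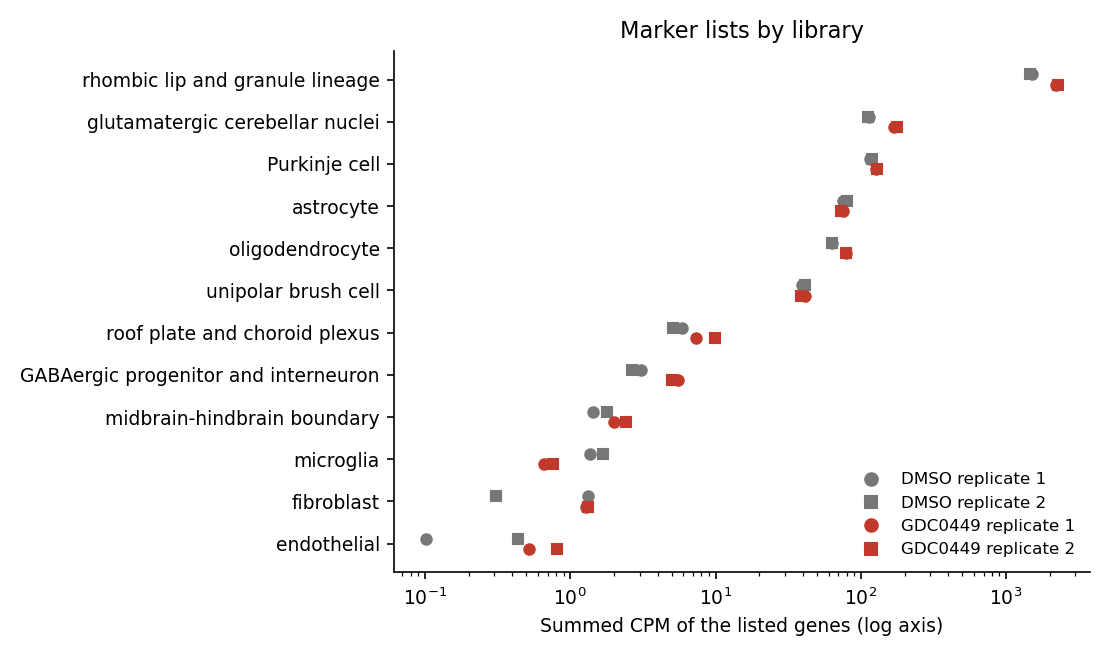
Summed CPM of each marker list (log axis) in each library, without the 10 members. The granule lineage list is the highest and is higher in both GDC0449 libraries. The GABAergic and roof plate lists are also higher in both GDC0449 libraries but stay below 10 CPM in every library. The midbrain-hindbrain boundary, microglia, fibroblast and endothelial lists stay below 10 CPM as well.

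Markers of cells outside the neuronal lineages were followed as well. Astrocyte genes summed to 74.8 to 80.5 CPM in DMSO and 73.0 to 75.5 CPM in GDC0449, nearly all of it Slc1a3, while Aqp4 and Aldh1l1 had 0 reads. Oligodendrocyte genes summed to 63.2 CPM in both DMSO libraries and 79.0 CPM in both GDC0449 libraries, mostly Mbp, with Olig1 at 0 and Sox10 at 0 to 2 reads. Microglial genes summed to 1.37 and 1.68 CPM in DMSO and 0.664 and 0.758 CPM in GDC0449, endothelial genes to at most 0.806 CPM, with Cdh5 and Kdr at 0, and fibroblast genes to at most 1.33 CPM, with Lum at 0. Tyrobp fell and Pecam1 rose, with group means under 1 CPM. Leaving out DMSO replicate 1 or 2, the adjusted p of Tyrobp was 0.0653 and 0.0958 and that of Pecam1 0.292 and 0.108; Tyrobp was at 0.0579 without GDC0449 replicate 1 and Pecam1 at 0.209 without GDC0449 replicate 2. In the astrocyte, oligodendrocyte and fibroblast lists 3, 3 and 2 genes were tested, and edgeR, DESeq2 and limma-voom called 0. Over all genes tested edgeR called 12.5%. In these lists 1, 1 and 0 genes had an unadjusted edgeR p under 0.05. They were Gfap (edgeR adjusted p = 0.0856) and Mbp. Mbp was 1.33-fold higher (edgeR adjusted p = 1.22e-05), under the fold threshold. The part of these cells in the levels of Lhx1 and Otx2 was not tested.

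Likeness of profile across the libraries was measured as the root mean square difference of log2 CPM, centred on each gene's mean, over the 4 libraries. Among the tested members Otx1 and En2 were most alike, at 0.0775, and Otx2 and Lhx1 were next, at 0.0787. Pax6 was in neither pair: its nearest member was Otx1, at 0.200, and Lhx1 was the farthest, at 0.572. Among 10142 other named genes at 5 CPM or more, Tex14 and Idi1 were closest to Lhx1, at 0.00489 and 0.00602, and Cyb5a and Sox5 were closest to Otx2, at 0.0145 and 0.0147. Idi1, an enzyme of isoprenoid synthesis, went from 33.1 ± 0.0633 to 63.3 ± 1.53 CPM, and the transcription factor gene Sox5 from 28.1 ± 1.21 to 48.5 ± 1.67 CPM. The 4 libraries fall into 2 groups, and this likeness is a description.

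The differences of the tested members were compared across processing alternatives. The log2 fold change of Lhx1 lay between 0.92 and 0.97 over 12 alternatives and that of Otx2 between 0.77 and 0.85, and both were called in each of them. Otx1 lay between 0.09 and 0.21, En2 between 0.24 and 0.37 and Pax6 between -0.28 and -0.04, and none of these 3 was called in any.

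**Figure D5:**
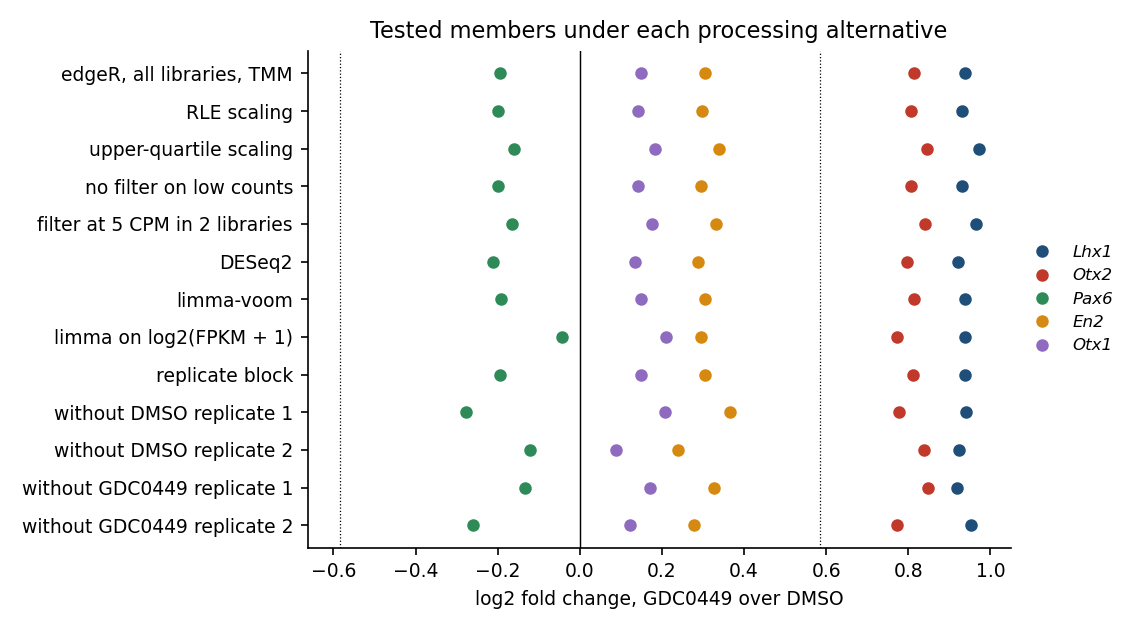
Log2 fold changes of GDC0449 over DMSO for the 5 tested members under each alternative (rows), with dotted lines at a 1.5-fold difference. Lhx1 and Otx2 stay above the upper line in every row, and Pax6, Otx1 and En2 stay between the lines.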

How the data were processed

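RNA-seq of 4 libraries was analysed; groups came from the sample titles. Per the submitters' processing notes, Trim Galore, HISAT2 (mm10) and HTSeq 0.11.1 made the reads-per-gene table. Neither the annotation release nor a strand setting is stated. The deposited values are raw counts and, computed by the authors from reads, gene length and depth, FPKM; 546 genes with 0 counts in all libraries have an FPKM of at least 1 in all. Coordinates came from GENCODE M21 (GRCm38), matching 55480 of 55573 identifiers. The 6 rows naming no gene were left out, among them multiple alignments (10.4% to 10.7%) and ambiguous reads (4.73% to 4.91%).

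The quasi-likelihood test of edgeR 4.0.16 (R 4.3.3) was applied to the counts of all 4 libraries with TMM scaling, the default filter and no covariate; p-values were Benjamini-Hochberg adjusted over all tested genes. Standard errors are log2 fold changes over the root of F. The biological coefficient of variation was 4.82%. Alternatives were 2 other scalings (RLE, upper-quartile), omitting the filter or requiring 5 CPM in 2 libraries, DESeq2 1.42.0, limma-voom (limma 3.58.1), limma on log2(FPKM + 1), a replicate block, each library left out, and other thresholds. The test was tried on simulated data. Intervals and floors cover counting error only.

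Members and lists were chosen with earlier results of these data known. Alternatives for list counts and for genes other than the members were added after seeing the data. Named by rule were the members, 3 Hedgehog targets, annotated neighbours, up to 4 called genes per list by p (or the 2 most abundant where none was called), and the 2 closest profiles to each called member. All other genes were named after their values were seen. Some genes of the lists are not reported here.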

Additional observations from a re-analysis of the deposited data

How the results depend on the processing

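The 1939 genes called over the whole table became 1159 with no filter on low counts, 1165 with the filter at 5 CPM, 1224 with DESeq2, 870 with limma on log2(FPKM + 1), 5587 at adjusted p alone and 960 at 2-fold; leaving out 1 library gave 851 to 1826. Lhx1 and Otx2 were called higher, and 0 members lower, under each of 12 alternatives to the fit; at adjusted p alone 3 members were higher and 1, Pax6, lower, and at 2-fold 0 were called. The Otx1 to Otx2 log2 difference of -0.66 was -0.52 on FPKM, and -0.75 to -0.57 with 1 library left out. The per-length Otx2 to Lhx1 ratio reversed, to 0.767 in DMSO and 0.703 in GDC0449, with counts per GENCODE exon length in place of FPKM. On log2(FPKM + 1) the log2 fold change of Foxp2 turned to 0.13. With 1 library left out those of Col1a2 ranged from -0.11 to 2.36 and of Otx2os1 from -0.19 to 0.21. The cause was not tested.

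With the replicate number as a block 2022 genes were called, and Lhx1 and Otx2 stayed higher. The labels do not say that the numbers pair the libraries; same-numbered libraries had deviations correlated at 0.214 over 10803 genes. Barhl1, Eomes and Lmx1a had 10 reads or fewer per library and were not tested. For Barhl1 the counts are compatible with any ratio within its counting interval of 0.603 to 2.68.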
